A study of Mus musculus with 11 samples.

Results

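The 5 genes described here encode enzymes that join proline, ornithine and glutamate: Prodh, Aldh4a1, Oat, Aldh18a1 and Glud1. They are 5 of 20259 genes measured in mouse ribosome pull-downs labelled as hippocampal astrocytes. Each was read from the probe set that the platform annotation pairs with its symbol alone, and each of the 5 had 1 such set. Prodh was chosen by its values on these same arrays, where it ranked first by p for ketogenic against fed and for fasted against ketogenic arrays, so its differences are given as a description, with no test. The other 4 were listed for their place in the pathway, with earlier results of these data known.

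The mice carried a Ribo-Tag, an epitope on a ribosomal protein, whose expression Aldh1l1-Cre restricts to astrocytes, so that mRNA on tagged ribosomes could be purified from hippocampus. The sample titles and the methods for the pull-downs name hippocampus, while the study's results describe the array data as from astrocytes of the forebrain. Fed mice received chow for 4 weeks (4 arrays), ketogenic mice a diet rich in fat and poor in carbohydrate for 4 weeks (4 arrays), and fasted mice were deprived of food (3 arrays), for 18 h by the treatment protocol and by the methods for the pull-downs, while the sample characteristics give 24 h and the general animal methods name both durations. All groups carried the same Cre and tag. The study calls the pull-down mice adult, its general methods give 9 weeks of age unless another is stated, and whether animals were pooled is not given in the sources used here. The arrays are labelled as biological samples, and p-values measure the spread between them.

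Proline is broken down in mitochondria, where proline dehydrogenase (Prodh) oxidizes it to pyrroline-5-carboxylate and passes the electrons to the respiratory chain. Aldh4a1 oxidizes pyrroline-5-carboxylate to glutamate, and glutamate dehydrogenase (Glud1) converts glutamate to 2-oxoglutarate of the tricarboxylic acid cycle. Ornithine aminotransferase (Oat) links ornithine to the same intermediate, and Aldh18a1 makes it from glutamate as the first step of proline synthesis. Loss of PRODH or ALDH4A1 in humans raises proline in blood, and loss of OAT causes gyrate atrophy of the retina.

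Values are log2 units after robust multiarray averaging (RMA), which removes background, gives all arrays one distribution and summarizes the probes of a set. Levels of different genes are not set against each other, since probe sets respond differently. All 5 genes lay above 3.96 log2, the 95th percentile of the odorant receptor genes, taken as a background level. Fed array 2 and fasted array 2 differed most from the rest (limma array weights 0.251 and 0.458, against 1.03 to 1.43). Of 20 listed astrocyte markers 19 were measured, all above the background level, and the same held for all 15 measured neuron and all 10 measured oligodendrocyte markers, so that RNA of other cells was present too. The mean of the 19 astrocyte markers ran from 7.95 to 8.09 log2 on fed, from 7.84 to 8.05 on fasted and from 7.41 to 7.69 on ketogenic arrays. In such samples, fewer cells of a type, less RNA per cell and a larger share of RNA from other cells in the pull-down cannot be told apart.

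Prodh was highest after fasting, intermediate on chow and lowest on the ketogenic diet. The fed arrays read 6.13, 6.14, 6.24 and 6.11 log2, the fasted arrays 6.49, 6.39 and 6.36, and the ketogenic arrays 5.25, 5.34, 5.37 and 5.18. The arrays of the 3 diets did not overlap, and the gap between ketogenic and fed arrays was wider than that between fed and fasted arrays. The group means were 6.16 ± 0.06 log2 (SD, n = 4) for fed, 6.41 ± 0.06 (SD, n = 3) for fasted and 5.29 ± 0.09 (SD, n = 4) for ketogenic arrays. Prodh was thus 0.26 log2 higher on fasted than on fed arrays (standard error 0.07), which is 1.20-fold with a 95% confidence interval from 1.07 to 1.34. On the ketogenic diet it stood at 0.548 of the fed level (0.494 to 0.609), a log2 difference of -0.87 (standard error 0.07). These differences put Prodh at number 1012 from the top of 20259 genes for fasting and at number 62 from the bottom for the ketogenic diet. Between fasted and ketogenic arrays the difference was 1.12 log2 (standard error 0.07), or 2.18-fold (1.95 to 2.44), number 15 from the top. With single arrays left out, the 3 differences ran from 0.22 to 0.28, from -0.90 to -0.83 and from 1.09 to 1.15 log2. The intervals, standard errors and ranks of Prodh take no account of its choice by these same values and are not tests.

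**Figure D1:**
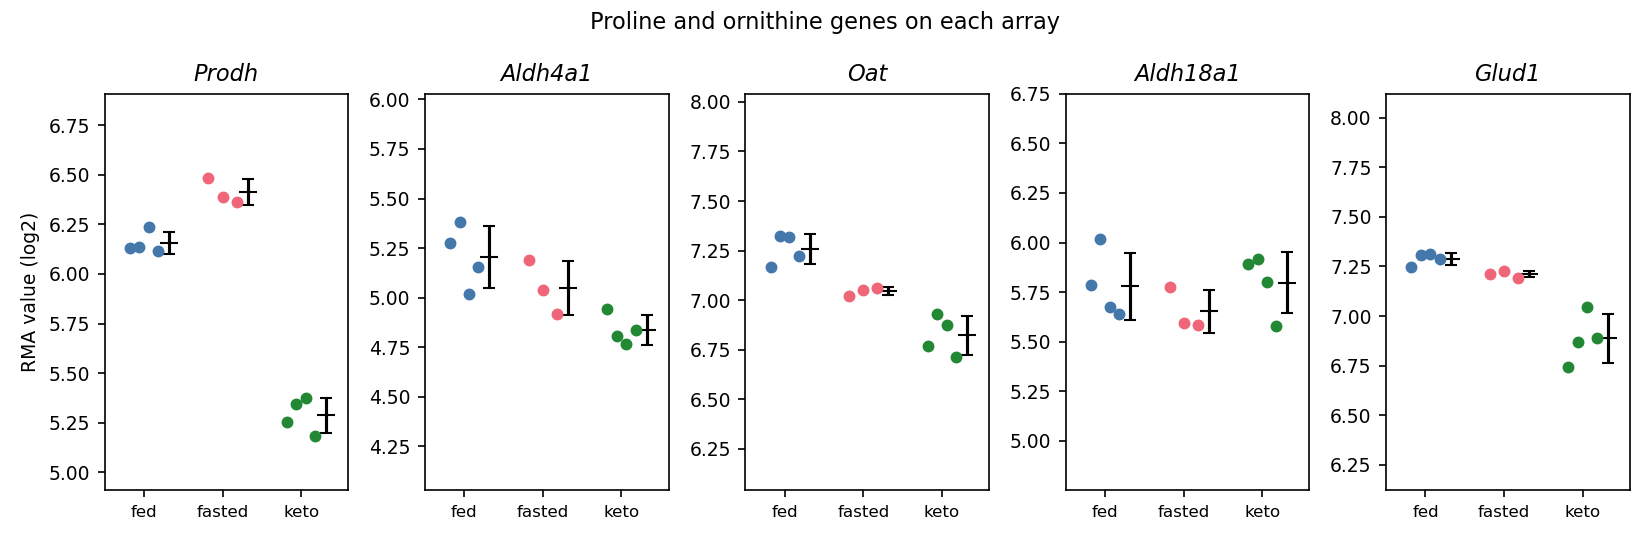
RMA value (log2, vertical axis, a span of 2 log2 units in each panel) of the 5 genes on each fed, fasted and ketogenic array (points), with the mean and SD of each diet (black bars). The 3 diets separate fully for Prodh, Oat and Glud1, while the arrays of Aldh18a1 overlap between all diets.

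The promoters of Prodh, Aldh4a1 and Oat are shown because theirs were the windows among the 5 that held a match to a motif searched, while those of Glud1 and Aldh18a1 held none. All 5 genes were matched in the RefSeq promoter windows (GRCm38.p6), which run from 250 bases before to 50 after the annotated start and are written 5′ to 3′ on the strand of the gene. Capitals mark matches, on either strand, to CCAAT (the CCAAT box) or to CACGCCC (a box of the kind that Krüppel-like factors bind, chosen after the sequences were seen).
Prodh (chr16:18089141-18089440, minus strand): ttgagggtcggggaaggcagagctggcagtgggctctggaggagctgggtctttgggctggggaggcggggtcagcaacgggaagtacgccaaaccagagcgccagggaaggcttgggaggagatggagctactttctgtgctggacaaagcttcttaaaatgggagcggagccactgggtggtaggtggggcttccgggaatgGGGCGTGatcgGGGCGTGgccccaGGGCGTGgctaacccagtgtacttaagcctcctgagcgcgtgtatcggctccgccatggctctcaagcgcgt
Aldh4a1 (chr4:139622644-139622943, plus strand): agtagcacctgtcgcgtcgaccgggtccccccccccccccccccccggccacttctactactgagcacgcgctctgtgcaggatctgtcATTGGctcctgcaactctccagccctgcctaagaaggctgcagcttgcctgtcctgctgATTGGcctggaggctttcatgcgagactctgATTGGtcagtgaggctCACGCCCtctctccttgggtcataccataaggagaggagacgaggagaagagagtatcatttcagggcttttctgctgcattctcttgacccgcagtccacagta
Oat (chr7:132576349-132576648, minus strand): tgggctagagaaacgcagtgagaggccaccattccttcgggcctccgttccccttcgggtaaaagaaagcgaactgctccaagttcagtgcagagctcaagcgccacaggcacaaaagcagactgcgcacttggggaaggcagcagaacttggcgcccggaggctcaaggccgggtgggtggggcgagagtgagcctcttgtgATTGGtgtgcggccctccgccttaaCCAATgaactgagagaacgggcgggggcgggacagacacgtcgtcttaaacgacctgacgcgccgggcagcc

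The Prodh window held CACGCCC 3 times, each on the strand opposite to the gene, and no CCAAT. Of 32851 promoter windows of the same length, 8.44% held CACGCCC at least once and 0.274% held it 3 or more times. Because CACGCCC was chosen after the sequences were seen, these shares are no test of it. The Aldh4a1 window held CCAAT 3 times and CACGCCC 1 time, and the Oat window held CCAAT 2 times. CCAAT was present in 37.4% of all windows and 3 or more times in 3.37%. No match overlapped another. The glucocorticoid response element (AGAACA and TGTTCT with 3 bases between, in 0.00913% of windows), AGAACA alone (19%) and TGATGNAA, the core of the element that ATF4 binds (3.97%), had no match on either strand in the windows of the 5 genes. The study counted Prodh among known glucocorticoid-responsive genes, and dexamethasone induced it in cultured astrocytes. Sites outside these windows were not searched. Since nearly all windows lack the full element, its absence here says little about the response of Prodh.

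Aldh4a1, the enzyme that follows Prodh, had lower values on ketogenic than on fed arrays but did not pass the test. It read 5.27, 5.38, 5.02 and 5.16 log2 on fed, 5.19, 5.04 and 4.92 on fasted, and 4.94, 4.81, 4.77 and 4.84 on ketogenic arrays. All ketogenic arrays lay below all fed arrays, and the fasted arrays overlapped with both. The ketogenic difference was -0.37 log2 (standard error 0.09, adjusted p = 0.107 from limma over all genes), or 0.774-fold (0.672 to 0.892). The fasting difference was -0.16 log2 (standard error 0.10, adjusted p = 0.775), with an interval from -0.38 to 0.06, and became -0.10 without fed array 2 and -0.09 without fasted array 3. Between fasted and ketogenic arrays the difference was 0.21 log2 (standard error 0.10, adjusted p = 0.495), and 0.14 without fasted array 1.

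Oat fell on the ketogenic diet, and its fasted arrays lay between the other diets. It read 7.17, 7.33, 7.32 and 7.22 log2 on fed, 7.02, 7.05 and 7.06 on fasted, and 6.77, 6.93, 6.87 and 6.71 on ketogenic arrays. No 2 diets overlapped, and the fasted arrays were the least spread (SD 0.02). The ketogenic difference was -0.44 log2 (standard error 0.07, adjusted p = 0.0224 from limma), or 0.739-fold (0.663 to 0.823). This call was lost without fed array 3 or 4 or without ketogenic array 1, 2 or 4, with adjusted p from 0.0351 to 0.0926 over the 8 fits that each omitted an array. The fasting difference of -0.21 log2 (standard error 0.08, interval from -0.38 to -0.04) did not pass (adjusted p = 0.666), nor did the 0.22 log2 between fasted and ketogenic arrays (standard error 0.08, adjusted p = 0.327).

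After fasting, Oat thus lay below and Prodh above the fed arrays. Oligodendrocyte markers were also at lower values then. The mean of 10 such markers ran from 7.84 to 8.03 log2 on fed, from 7.31 to 7.70 on fasted and from 7.55 to 7.80 on ketogenic arrays, and 9 of the 10 had lower means on fasted than on fed arrays, with none called. The mean of 15 neuron markers ran from 8.16 to 8.20 log2 on fed, from 8.20 to 8.40 on fasted and from 8.30 to 8.31 on ketogenic arrays. The part of these cells in the values of Oat was not tested.

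Glud1 fell on the ketogenic diet. It read 7.25, 7.31, 7.31 and 7.29 log2 on fed, 7.21, 7.23 and 7.19 on fasted, and 6.74, 6.87, 7.05 and 6.89 on ketogenic arrays. No 2 diets overlapped, the ketogenic arrays lay lowest and were more spread (SD 0.12, against 0.03 on fed and 0.02 on fasted arrays), and the fasted arrays lay just below the fed ones. The ketogenic difference was -0.40 log2 (standard error 0.07, adjusted p = 0.0332 from limma), or 0.757-fold (0.679 to 0.845). Of the 8 fits that each omitted an array, only the one without ketogenic array 3 kept the call (adjusted p from 0.0238 to 0.114), and it was also lost when both fed array 2 and fasted array 2 were omitted (adjusted p = 0.0530). The fasting difference was -0.08 log2 (standard error 0.08, adjusted p = 0.866), and that between fasted and ketogenic arrays was 0.32 (standard error 0.08, adjusted p = 0.136).

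Aldh18a1, which feeds proline synthesis, did not differ between diets beyond its spread. It read 5.79, 6.02, 5.68 and 5.64 log2 on fed, 5.78, 5.59 and 5.59 on fasted, and 5.89, 5.92, 5.80 and 5.58 on ketogenic arrays. The arrays of all diets overlapped. The ketogenic difference was 0.02 log2 (standard error 0.11, adjusted p = 0.960 from limma), with an interval from -0.21 to 0.25, and ran from -0.03 to 0.10 with single arrays left out, with its sign turned when fed array 3, fed array 4, ketogenic array 1 or ketogenic array 2 was omitted. It was -0.13 log2 for fasted against fed (standard error 0.11, adjusted p = 0.846) and -0.14 for fasted against ketogenic arrays (standard error 0.11, adjusted p = 0.697). The former was -0.05 without fed array 2 and the latter -0.22 without ketogenic array 4.

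For the 4 genes other than Prodh, two-sided exact permutation tests of single genes were run in all 3 comparisons, 12 tests in all. For ketogenic against fed arrays Aldh4a1, Oat and Glud1 each gave p = 0.0286, the smallest that 4 arrays against 4 can give, and Aldh18a1 gave an exact p of 0.8286. Any gene whose 4 arrays do not overlap with the other 4 gives that smallest value, and 10.7% of all genes did not overlap there. The p-values of Aldh4a1, Oat and Glud1 thus only restate that their arrays did not overlap. For fasted against fed arrays the exact p was 0.0286 for Oat, the smallest for 3 arrays against 4, 0.0571 for Glud1, 0.257 for Aldh4a1 and 0.314 for Aldh18a1. For fasted against ketogenic arrays it was 0.0571 for Oat and for Glud1, 0.0857 for Aldh4a1 and 0.229 for Aldh18a1. These p-values are not adjusted.

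Of the 4 genes other than Prodh, 2 were called lower on ketogenic than on fed arrays (Oat and Glud1) and none higher, where limma called 0.884% of all genes, 0.765% lower and 0.118% higher. The arrays of 3 of these 4 did not overlap there (Aldh4a1, Oat and Glud1), all lower, where 10.7% of all genes did not overlap (4.74% lower and 5.94% higher). The median of the 5 differences was -0.40 log2, beside 0.01 over all genes and -0.43 over the 19 astrocyte markers, of which all 19 had lower means and 8 were called. For fasted against fed arrays none of the 5 was called and limma called 0% of all genes, while 1433 genes had an unadjusted p under 0.05. In that comparison 2 of the 4 genes other than Prodh were lower without overlap (Oat and Glud1) and none higher, where 6.43% of all genes did not overlap (2.16% higher and 4.27% lower), and the median of the 5 was -0.13 log2, beside -0.02 over all genes. For fasted against ketogenic arrays none of the 4 genes other than Prodh was called, where 0.281% of all genes were (0.222% higher and 0.0592% lower). There 2 of these 4 were higher without overlap (Oat and Glud1), where 13.9% of all genes did not overlap (4.78% higher and 9.16% lower), and the median of the 5 was 0.22 log2, beside -0.04 over all genes. The values of Prodh enter the medians, and its own calls are left out of the counts because they chose it. Comparisons with a diet in common share its arrays.

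Each gene was also set against the astrocyte marker level of the same array, as its log2 value minus the mean of the 19 markers. That mean differed by -0.53 log2 between ketogenic and fed, by -0.07 between fasted and fed and by 0.46 between fasted and ketogenic arrays. On this relative scale Prodh kept its order, from -2.31 to -2.16 on ketogenic, from -1.96 to -1.82 on fed and from -1.68 to -1.45 on fasted arrays, with no overlap. Its relative difference was -0.34 log2 (standard error 0.09) for ketogenic against fed, 0.33 (standard error 0.10) for fasted against fed and 0.67 (standard error 0.10) for fasted against ketogenic arrays. Without overlap on this scale, 0.133% of all genes were lower and 72.1% higher for ketogenic against fed, 3.34% higher and 1.73% lower for fasted against fed, and 0.178% higher and 69.8% lower for fasted against ketogenic arrays. The large shares follow from subtracting a mean that itself differed. Whether the markers themselves respond to the diets was not tested. The study counts Gjb6, which is among the 19, with Prodh as glucocorticoid-responsive. The marker Gja1 lay close to the background level (3.98 against 3.96 log2). On the deposited scale, single markers ran from -1.02 (Slc39a12) to -0.26 log2 (Atp1b2) for ketogenic against fed arrays. The -0.87 of Prodh lies inside that range. The markers ran from -0.37 to 0.15 for fasted against fed and from 0.19 to 0.90 for fasted against ketogenic arrays. Prodh, at 0.26 and 1.12, lay above both ranges. Because Prodh was chosen by these same values, its place against the markers and its separation on the relative scale are descriptions and no test.

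The relative differences of the other 4 genes for ketogenic against fed arrays were above 0. Oat was at 0.09 log2 (standard error 0.09, adjusted p = 0.376), Glud1 at 0.12 (0.09, adjusted p = 0.202), Aldh4a1 at 0.16 (0.13, adjusted p = 0.260) and Aldh18a1 at 0.54 (0.12, adjusted p = 0.00178), all from limma. On this scale limma called 85.7% of all genes higher and 0.183% lower in this comparison, so that the call of Aldh18a1 was shared by most genes. For fasted against ketogenic arrays it called 0.183% higher and 79.2% lower, and for fasted against fed arrays 0% in either direction. With diet means removed, the deviations of Glud1 over the 11 arrays correlated with those of the marker mean at Pearson r = 0.68, those of Prodh at 0.56, of Oat at 0.52, of Aldh18a1 at 0.16 and of Aldh4a1 at -0.25. These correlations are descriptions, since the genes of an array share its RNA and hybridization. The part of the astrocyte share of RNA in the ketogenic values was not tested beyond these relative values.

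**Figure D2:**
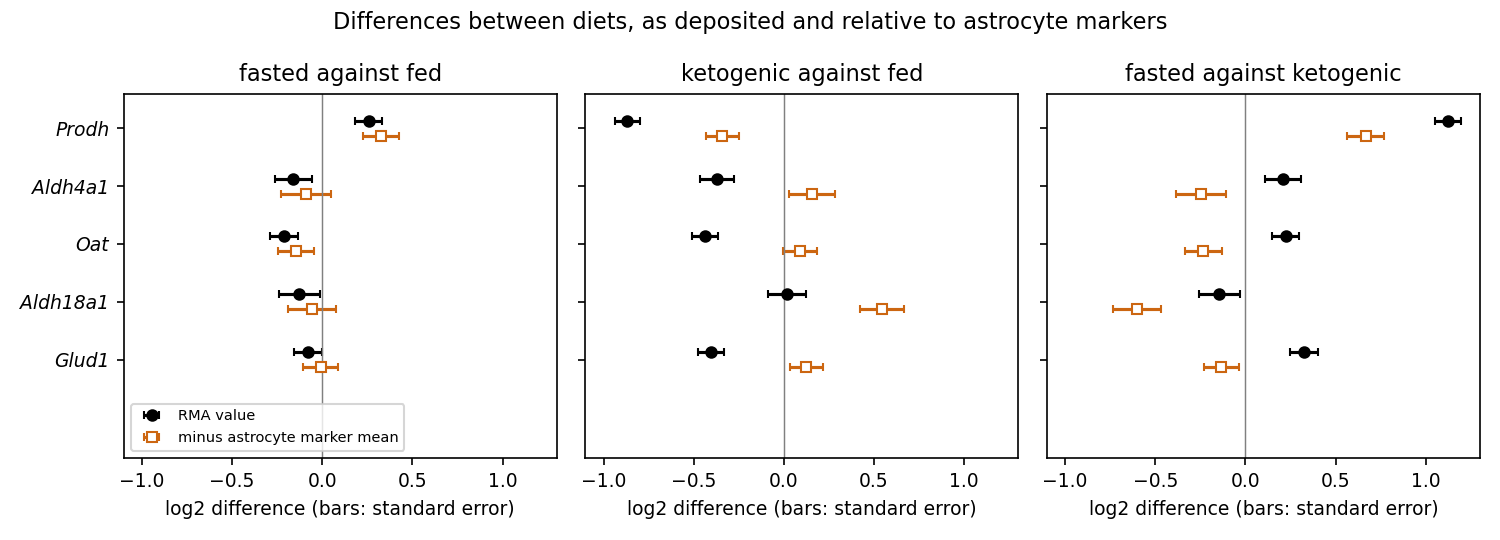
Log2 difference between diets (horizontal axis, bars are standard errors) of the 5 genes, for the deposited values (filled circles) and for values minus the mean of 19 astrocyte markers of the same array (open squares). Prodh keeps its direction on both scales in all 3 comparisons, while Oat, Glud1 and Aldh4a1 change sign for ketogenic against fed arrays.

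**Figure D3:**
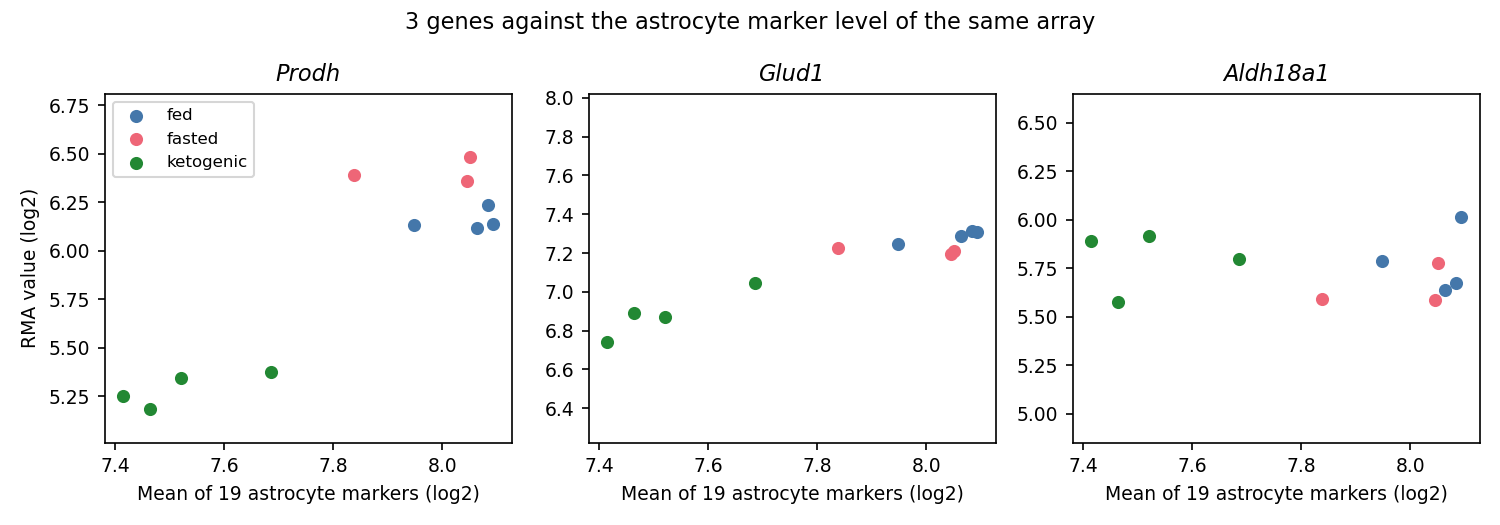
RMA value (log2, vertical axis) of Prodh, Glud1 and Aldh18a1 against the mean of 19 astrocyte markers on the same array (log2, horizontal axis), 1 point per array. Fasted arrays 1 and 3 have marker means of 8.05 and 8.05, within the fed range of 7.95 to 8.09. Fasted array 2, which had a low array weight (0.458), has a marker mean of 7.84 and a Prodh value of 6.39. The Prodh values of all fasted arrays lie above those of the 4 fed arrays.

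The genes whose pattern over the 11 arrays was most like that of Prodh, among 13217 genes above the background level, were Cbs (Pearson r = 0.987), which makes cystathionine from homocysteine, Aass (0.983), which starts lysine breakdown, the potassium-chloride cotransporter gene Slc12a4 (0.972), the sphingomyelinase gene Smpd2 (0.971) and the acyl-CoA thioesterase gene Acot11 (0.969). Their ketogenic differences were -0.74 (Cbs), -0.55 (Aass), -0.50 (Slc12a4), -0.44 (Smpd2) and -0.77 log2 (Acot11), and their fasting differences were 0.21 (Cbs), 0.26 (Aass), 0.08 (Slc12a4), 0.10 (Smpd2) and 0.11 log2 (Acot11). The ketogenic arrays of Prodh form a separate cluster, so these correlations mostly describe that gap. By the same measure Glud1 was number 99, Oat number 383, Aldh4a1 number 662 and Aldh18a1 number 7947. With diet means removed, the 5 most alike were Arhgef19 (0.915), Eci2 (0.907), Nrtn (0.895), Tbr1 (0.892) and Cox8a (0.892), none of them among the 5 above. Before that removal Nrtn (-0.32), Tbr1 (-0.82) and Cox8a (-0.70) had correlations with Prodh below 0. With diet means removed, Prodh correlated with Oat at 0.65, with Glud1 at 0.47, with Aldh18a1 at 0.39 and with Aldh4a1, its partner in proline breakdown, at -0.17.

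The wider pathway held 55 measured genes in 6 lists, from 63 listed names, and 46 of the 55 lay above the background level. Of the 55, 2 were called lower on ketogenic than on fed arrays and none higher, none was called for fasted against fed, and 1 was called higher on fasted than on ketogenic arrays, where 0.884%, 0% and 0.281% of all genes were called. By sign alone, 28 of the 55 ketogenic differences were above 0 and 27 below. With single arrays left out, the 2 became 0 or 1 in each of the 8 fits and the 1 became 0 in each of the 7. Their median differences were 0.00 log2 for ketogenic against fed, -0.02 for fasted against fed and -0.02 for fasted against ketogenic arrays, beside 0.01, -0.02 and -0.04 over all genes.

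The last step of proline synthesis was measured through Pycrl, a pyrroline-5-carboxylate reductase, which read between 6.50 and 6.89 log2 on fed, between 6.05 and 6.70 on fasted and between 6.71 and 6.98 on ketogenic arrays. Its differences were 0.10 log2 for ketogenic against fed (adjusted p = 0.821), -0.29 for fasted against fed (adjusted p = 0.734) and -0.39 for fasted against ketogenic arrays (adjusted p = 0.398). Without fasted array 2 the latter pair became -0.09 and -0.19, and without fed array 2 the ketogenic value became 0.01.

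None of the 9 genes of hydroxyproline breakdown, prolyl hydroxylation of collagen and prolidases was called in any comparison. P4ha1, a catalytic subunit of prolyl hydroxylase, was at -0.46 log2 after fasting (standard error 0.15, adjusted p = 0.607), with all fasted arrays below all fed arrays, and at -0.26 without fed array 2 and fasted array 2. L3hypdh, which dehydrates hydroxyproline, was at -0.35 on the ketogenic diet (adjusted p = 0.376) and at 0.31 for fasted against ketogenic arrays (adjusted p = 0.574). Without fed array 2 and fasted array 2 both values of L3hypdh passed, at -0.41 (adjusted p = 0.0441) and 0.59 (adjusted p = 0.0320). With single fasted arrays left out, the latter value was 0.21 without array 1, 0.59 without array 2 and 0.14 without array 3, with no call (adjusted p = 0.780, 0.0739 and 0.812). P4hb, the partner subunit of the prolyl hydroxylases, was at -0.28 on the ketogenic diet (adjusted p = 0.180).

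Of 12 transporters of proline, ornithine and related amino acids, 1 was called, Slc7a2, which carries arginine, lysine and ornithine into cells. Slc7a2 read 5.83, 6.27, 5.84 and 5.97 log2 on fed, 6.05, 5.62 and 6.11 on fasted, and 5.32, 5.41, 5.44 and 5.18 on ketogenic arrays, and the ketogenic arrays lay below all others. Its ketogenic difference was -0.64 log2 (standard error 0.13, adjusted p = 0.04995 from limma), a call lost whichever of the 8 arrays was omitted, and it was -0.38 (adjusted p = 0.298) when its 2 probe sets were summarized by their median. Single astrocyte markers ran from -1.02 to -0.26 in that comparison, and the part of the astrocyte share of RNA in Slc7a2 was not tested.

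Slc25a15, the mitochondrial ornithine carrier, lay below all fed arrays on both other diets, as Oat did. Its mean was 5.32 ± 0.16 log2 (SD, n = 4) on fed, 4.98 ± 0.02 (SD, n = 3) on fasted and 5.04 ± 0.06 (SD, n = 4) on ketogenic arrays. The fasting difference of -0.34 log2 (standard error 0.09, adjusted p = 0.459) and the ketogenic one of -0.28 (standard error 0.08, adjusted p = 0.159) did not pass. Slc6a20a, a proline transporter, was at 0.73 log2 for fasted against ketogenic arrays (adjusted p = 0.120), and at 0.50 without fasted array 2. Slc38a2, a carrier of neutral amino acids, was at -0.03 on the ketogenic diet (adjusted p = 0.915).

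No gene of the 13 for arginine, urea and creatine was called, and 8 of the 13 lay above the background level. Nos1, the nitric oxide synthase of neurons, was at 0.59 log2 on the ketogenic diet (standard error 0.24, adjusted p = 0.301) and at 0.35 after fasting (standard error 0.26, adjusted p = 0.808). The fasting value of Nos1 moved to 0.61 when fed array 1 was omitted, to 0.17 when array 2 of that diet was and to 0.23 when array 4 was. Arg2, the mitochondrial arginase that makes ornithine, was at -0.27 for fasted against ketogenic arrays (adjusted p = 0.570), and at -0.40 without fasted array 3.

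Of the 9 polyamine genes 1 was called, Smox, which oxidizes spermine. Smox read 5.36, 5.47, 5.52 and 5.54 log2 on fed, 5.64, 5.60 and 5.68 on fasted, and 5.23, 5.24, 5.26 and 5.23 on ketogenic arrays, with no overlap between diets. It was 0.40 log2 higher on fasted than on ketogenic arrays (standard error 0.07, adjusted p = 0.0432 from limma), a call lost whichever of the 7 arrays was omitted, and 0.14 higher when its 3 probe sets were summarized by their median. Single astrocyte markers ran from 0.19 to 0.90 in that comparison, and the part of the astrocyte share of RNA in Smox was not tested. Sat1, which acetylates spermidine and spermine, was at -0.53 log2 on the ketogenic diet (standard error 0.12, adjusted p = 0.0731), and passed with array weights (adjusted p = 0.0355) or with genes under the background level left out (adjusted p = 0.0462). Odc1, which turns ornithine into putrescine, was at 0.40 after fasting (standard error 0.25, adjusted p = 0.773), at 0.12 without fed array 2 and at -0.01 with the median of its 6 probe sets. Oaz2, an antizyme that restrains polyamine synthesis, was at 0.29 on the ketogenic diet (adjusted p = 0.425).

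Among 11 genes of glutamate and glutamine, 1 was called, Slc25a18, a mitochondrial glutamate carrier. Slc25a18 read 8.24, 8.33, 8.43 and 8.23 log2 on fed, 8.16, 7.78 and 7.96 on fasted, and 7.57, 7.56, 7.80 and 7.41 on ketogenic arrays. All fasted and ketogenic arrays lay below the fed arrays. The ketogenic difference was -0.72 log2 (standard error 0.10, adjusted p = 0.0170 from limma), and the call was lost without ketogenic array 1, 2 or 4. This difference lies inside the range of single astrocyte markers in that comparison (-1.02 to -0.26). The part of the astrocyte share of RNA in it was not tested. After fasting Slc25a18 was at -0.34 (standard error 0.11, adjusted p = 0.607). Slc25a12, an aspartate-glutamate carrier, was at -0.50 for fasted against ketogenic arrays (adjusted p = 0.475), and at 0.16 with the median of its 4 probe sets. Ogdh, a subunit of the 2-oxoglutarate dehydrogenase that uses a product of Glud1, was at -0.12 on the ketogenic diet (adjusted p = 0.644).

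**Figure D4:**
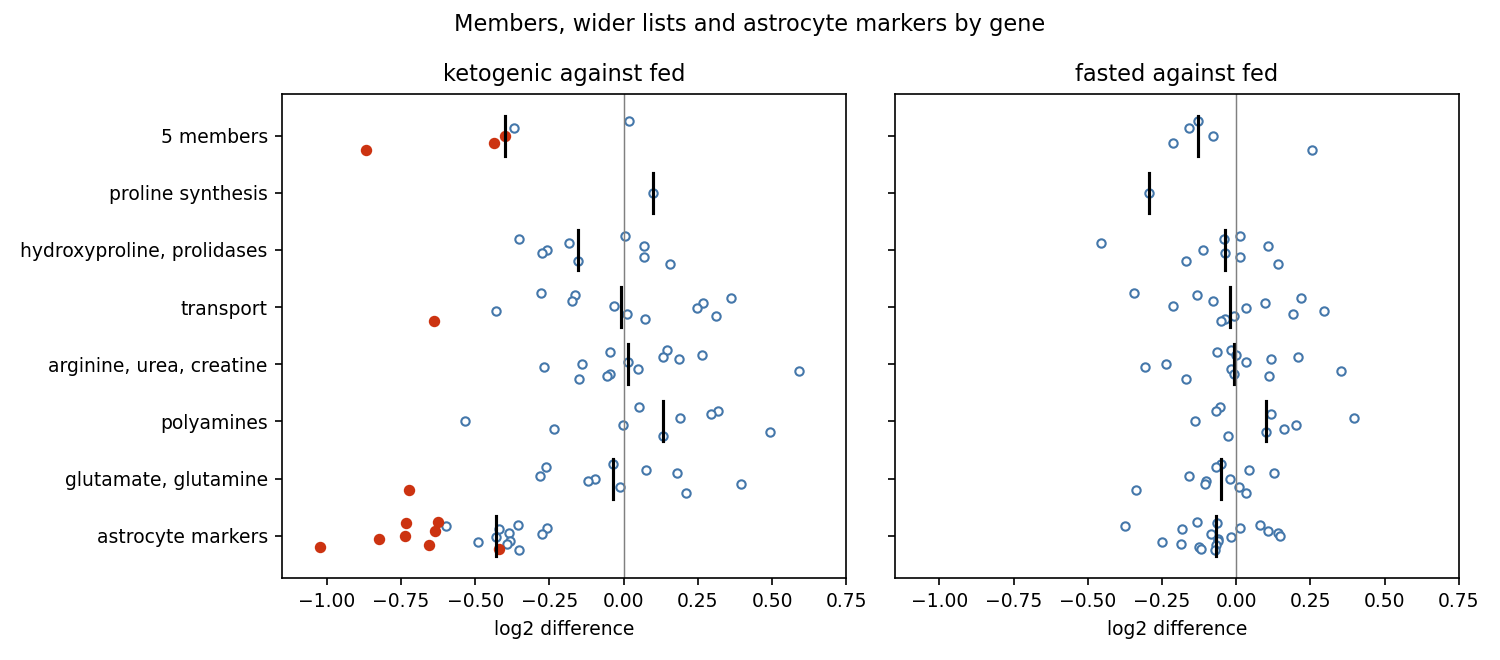
Log2 difference (horizontal axis) of each measured gene for ketogenic against fed (left) and fasted against fed arrays (right), by list, with filled points for genes past an adjusted p of 0.05 and a black line at the median of each list. On the ketogenic diet the median of the 5 members (-0.40) lies near that of the 19 astrocyte markers (-0.43), and the 55 genes of the wider lists spread on both sides of 0. Prodh is drawn filled on the left and enters the median of the members. It was chosen by these values, so its filled point is no test.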

How the data were processed

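RNA of tagged ribosomes was amplified with a NuGEN Pico kit, biotin-labelled and run on an Affymetrix mouse whole-exome array. The authors deposited log2 values made by RMA in Partek (build mm9, per the labels), which were used as given. Their log base is not stated, and a range from 0.856 to 13.6 was read as log2. Of 115830 probe sets, 25539 carry 1 symbol, 2300 several and 87991 none in the platform annotation. A gene took the set of highest mean over the 11 arrays. Of 20259 genes, 19800 were matched by Entrez ID in RefSeq.

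Diet means were fitted to all 11 arrays in limma 3.58.1 (R 4.3.3), with Benjamini-Hochberg adjustment over all genes at a threshold of 0.05, a procedure tested on simulated data. The members and lists were chosen with earlier results of these data known. From each wider list the text names called genes, the gene of highest mean and that of the largest difference in each comparison, and for likeness the 5 genes of highest correlation with Prodh by each measure. Alternatives were array weights, median centring, leaving out dim genes, the median over probe sets, all probe sets, 2-diet fits, limma-trend, a replicate block, the methods' t-test, values relative to astrocyte markers and leaving out arrays. The number of arrays limits the precision.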

Additional observations from a re-analysis of the deposited data

How the results depend on the processing

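The differences of Prodh kept their direction under all alternatives run, and moved by more than the spread between arrays only relative to the astrocyte marker mean (-0.34 log2 for ketogenic against fed and 0.67 for fasted against ketogenic arrays). On that scale the ketogenic differences of Aldh4a1 (0.157), Oat (0.0892) and Glud1 (0.125) and their differences between fasted and ketogenic arrays (-0.248, -0.234 and -0.134) changed sign, with Oat past the threshold in the latter (adjusted p = 0.0496 from limma), and Aldh18a1 passed (0.543 and -0.602), as 85.7% of all genes did upwards in the first and 79.2% downwards in the second comparison. The ketogenic calls of Oat (-0.437) and Glud1 (-0.401) were lost with all probe sets tested (adjusted p = 0.311 and 0.341), which tests more features, with the 2 diets alone (0.0576 and 0.0733), under the methods' t-test after adjustment (0.0899 and 0.105) and with the replicate block (0.0666 and 0.0923), and that of Glud1 also without fed array 2 and fasted array 2 (-0.395). Whether replicate numbers pair the arrays is not settled here, and the main fit took the arrays as unpaired. Of 10 same-numbered pairs, 2 had deviations correlated above 0.1, both between fed and fasted arrays (0.18 for arrays 2 and 0.13 for arrays 3). The 10 ran from -0.12 to 0.18, beside a median of -0.01 over 30 other pairs.

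The number of genes called for ketogenic against fed arrays was 179. It was 387 with array weights, 282 above the odorant receptor percentile, 79 with the 2 diets alone, 12 with the methods' t-test after adjustment (2760 at an unadjusted p under 0.05), 1 with the replicate block and 0 with all probe sets, and from 1 to 170 without single arrays. For fasted against ketogenic arrays it was 57, and 188, 88, 34, 6 (2580), 6 and 2 in the same order, and from 8 to 61 without single arrays. For fasted against fed arrays it was 0, and 1 without fed array 2 and fasted array 2, 1033 with the methods' t-test at an unadjusted p under 0.05, and from 0 to 1 without single arrays. When fed array 3 was omitted the ketogenic difference of Aldh18a1 was -0.0175, for fed array 4 it was -0.0295, for ketogenic arrays 1 and 2 it was -0.0149 and -0.0227, and its highest value was 0.0957, with fed array 2 omitted. Oat ran from -0.474 to -0.400 and Glud1 from -0.455 to -0.353 without single arrays. With the median over probe sets Odc1 (-0.00622 after fasting) and Slc25a12 (0.157 for fasted against ketogenic) changed sign. Where the construction of an alternative does not show it, the cause was not tested.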
